A study of Mus musculus with 2 samples.

Results

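The genes described here encode 9 subunits of the voltage-gated sodium channels that fire the action potential, measured in single cells of the mouse ventral parafacial region. They were chosen by symbol, and each of the 9 symbols occurred once among the 28692 genes of the deposited list. The members are 6 pore-forming alpha subunits, *Scn1a*, *Scn2a1*, *Scn3a*, *Scn8a*, *Scn9a* and *Scn7a*, and 3 beta subunits, *Scn2b*, *Scn3b* and *Scn4b*. Cells came from wild type C57BL6/J mice 10 days old, in 2 libraries that each pooled 8 mice (4 male and 4 female). The mice of one library were untreated, and those of the other received 0.2 mg of 4OH-tamoxifen daily for 3 days. Neither group carried a transgene. Each library was also its own batch (1 and 2), so condition and batch cannot be told apart, and no test between the libraries was made. Pooling removes the animal as a replicate, so the p-values given below measure the spread between class sums of these 2 libraries and not between mice.

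The untreated library held 3767 barcodes and 18496942 UMIs (unique molecular identifiers, 1 per counted RNA molecule), and the 4OH-tamoxifen library held 10241 barcodes and 34704167 UMIs. After filters on genes, hemoglobin, mitochondrial RNA and doublets, 3339 and 8558 cells were kept, with a median of 3628 and 2411 UMIs. The libraries shared 40 cell barcodes, which is 1.06% of the untreated ones. Cells were placed in 9 classes by gates on *Slc32a1* (inhibitory), *Slc17a6* (glutamatergic), *Chat* (cholinergic), *Aqp4* (astrocyte), *Pdgfra* (oligodendrocyte precursor), *Mog* (oligodendrocyte), *C1qa* (microglia), *Cldn5* (endothelial) and *Kcnj8* (pericyte). A gate asked for at least 2 UMIs of the class gene and fewer than 2 of each other gate gene. In all, 7552 of 11897 kept cells passed a gate (63.5%), and they held 6984 of the 11907 member UMIs (58.7%). Of 36 further marker genes fixed for these classes, 34 were highest in the class they mark. The exceptions were *Slc17a8*, which was at 0 and 1.89 CPM in the glutamatergic gate, and *Cspg4*, which was higher in the pericyte gate than in precursors. The 3 neuron gates were small. They held 73 and 249 inhibitory cells, 31 and 102 glutamatergic cells, and 7 and 30 cholinergic cells in the untreated and 4OH-tamoxifen libraries.

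A sodium channel is a single large alpha subunit that forms the pore and the voltage sensor, joined by beta subunits that tune its gating and its place in the membrane. In central neurons *Scn1a* is known from inhibitory cells and from Dravet syndrome, *Scn2a1* and *Scn8a* from the axon initial segment, and *Scn3a* from the developing brain. *Scn9a* is best known from pain-sensing neurons, and *Scn7a* encodes an atypical channel that responds to sodium. The ventral parafacial region contains the retrotrapezoid nucleus, whose glutamatergic neurons express *Nmb* and sense CO2, with inhibitory neurons around them, adrenergic cells that express *Th*, and facial motor neurons nearby.

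Of the alpha genes, 5 lie in 1 region of mouse chromosome 2, with other genes between *Scn2a1* and *Scn1a* (GRCm38, GENCODE vM21). In order along the chromosome they are *Scn3a* (65457118 to 65567627, minus strand), *Scn2a1* (65620771 to 65767447, plus strand), *Scn1a* (66270778 to 66440840, minus strand), *Scn9a* (66480080 to 66634962, minus strand) and *Scn7a* (66673425 to 66784914, minus strand). *Scn8a* lies alone on chromosome 15 (100869858 to 101045938, plus strand). The 3 beta genes share chromosome 9, at 40269217 to 40291618 for *Scn3b*, 45117782 to 45130070 for *Scn2b* and 45138395 to 45154152 for *Scn4b*, all on the plus strand. *Scn2b* and *Scn4b* thus lie close together, and their levels followed different classes, as described below. The alpha genes are paralogs, and reads shared between them were not examined.

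Upstream stretches of 3 alpha genes are shown because *Scn1a* and *Scn9a* are neighbours on chromosome 2 and *Scn8a* differs from them in CG content. They come from RefSeq (GRCm38.p6), run 5′ to 3′ on the strand of the gene, lie outside the exons of the gene in GENCODE, and carry each CG dinucleotide in capitals.
Scn1a, chr2:66440841-66441087, minus strand: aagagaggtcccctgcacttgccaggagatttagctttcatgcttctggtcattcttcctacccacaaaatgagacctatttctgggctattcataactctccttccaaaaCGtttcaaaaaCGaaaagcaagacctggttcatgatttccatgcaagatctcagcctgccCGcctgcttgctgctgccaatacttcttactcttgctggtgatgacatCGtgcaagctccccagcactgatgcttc
Scn9a, chr2:66634963-66635212, minus strand: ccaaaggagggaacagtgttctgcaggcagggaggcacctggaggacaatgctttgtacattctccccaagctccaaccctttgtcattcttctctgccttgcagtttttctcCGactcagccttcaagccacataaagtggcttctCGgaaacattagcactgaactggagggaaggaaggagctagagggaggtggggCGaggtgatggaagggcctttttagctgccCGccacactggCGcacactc
Scn8a, chr15:100870395-100870644, plus strand: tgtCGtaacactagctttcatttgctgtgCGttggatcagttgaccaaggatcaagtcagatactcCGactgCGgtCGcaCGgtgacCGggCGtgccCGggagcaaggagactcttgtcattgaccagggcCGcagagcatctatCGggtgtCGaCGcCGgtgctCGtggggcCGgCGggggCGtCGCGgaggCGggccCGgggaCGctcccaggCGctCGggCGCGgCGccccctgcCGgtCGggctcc
The *Scn9a* and *Scn8a* stretches end at a RefSeq start, and the *Scn1a* stretch of 247 bases leaves out the last bases of its window, which overlap an exon. The *Scn1a* and *Scn9a* stretches hold 4 and 5 CG, and the *Scn8a* stretch holds 30. The *Scn8a* stretch lies in an intron of the longer GENCODE gene, and the antisense gene Gm13629 overlaps the *Scn1a* stretch. Over the 32851 windows of 250 bases before an annotated start, the median was 6 CG, 7.87% of windows held none, and 5.94% held as many as *Scn8a*. The letters searched were CG, which reads the same on both strands. Among the beta genes, *Scn4b* had 23 CG in its window (13.3% of windows held as many) and the nearby *Scn2b* had 1 (92.1% held as many). In all, 7 of the 9 members had a window. *Scn2a1* had windows of 2 and 9 CG at separate starts, *Scn8a* had a second one of 9, and *Scn7a* had 3. *Scn3a* and *Scn3b* are named only. These counts are a description of the sequence, with no test against expression.

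Levels are given as CPM, the UMIs of a gene scaled to a fixed total of UMIs of the class in a library. With 3′ UMI counting a molecule counts once whatever its length, but capture and mapping can differ between genes and were not examined, so levels of separate genes are compared with that limit. *Scn2a1*, a channel of the axon initial segment early in life, was the most abundant member in inhibitory cells, at 432 CPM in the untreated and 406 CPM in the 4OH-tamoxifen library. Glutamatergic cells held it at 510 and 440 CPM. Cholinergic cells were lower, at 188 and 361 CPM, and no non-neuronal class passed 59.1 CPM. *Scn2a1* was therefore highest in the glutamatergic and inhibitory gates in both libraries, and the intervals of these 2 gates overlapped.

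*Scn1a* had another order. Inhibitory cells held it at 196 and 247 CPM, glutamatergic cells at 68.9 and 219 CPM, and cholinergic cells at 188 and 405 CPM. The untreated glutamatergic gate stood apart from the rest here, on 22 UMIs against 116 in the 4OH-tamoxifen library. *Scn8a*, the channel of mature initial segments and nodes of Ranvier, was highest in cholinergic cells in both libraries, at 341 and 371 CPM. It was at 132 and 191 CPM in inhibitory cells and at 90.8 and 174 CPM in glutamatergic cells. *Scn3a* was at 172 and 210 CPM in inhibitory, 247 and 180 CPM in glutamatergic and 34.1 and 72.3 CPM in cholinergic cells, the last on 2 and 15 UMIs.

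*Scn9a* was the only member with its highest level in glutamatergic cells and its lowest neuronal level in inhibitory cells in both libraries. It was at 81.4 and 47.3 CPM in the former and at 15.7 and 17.9 CPM in the latter. Cholinergic cells held 68.3 and 28.9 CPM, on 4 and 6 UMIs. *Scn7a* was close to absent. It gave 15 UMIs in all gated cells, of which 6 were in inhibitory, 5 in glutamatergic, 3 in precursor and 1 in oligodendrocyte cells. It failed the filter on low counts, so 8 of the 9 members entered the tests.

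The beta subunits, which modify gating and adhesion, also differed in their order over the neuron gates. *Scn2b* was at 235 and 243 CPM in inhibitory, 279 and 304 CPM in glutamatergic and 68.3 and 174 CPM in cholinergic cells. *Scn3b* was at 84.6 and 102 CPM in inhibitory and 106 and 117 CPM in glutamatergic cells. The cholinergic gate held 0 UMIs of *Scn3b* in the untreated library, where 3 UMIs would have been 51.2 CPM, and 1 UMI (4.82 CPM) in the other. *Scn4b*, which is known for the resurgent current of fast-firing neurons, ran the other way, at 85.3 and 91.6 CPM in cholinergic cells. Inhibitory cells held 0 and 16.2 CPM of *Scn4b* and glutamatergic cells 3.13 and 18.9 CPM.

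**Figure D1:**
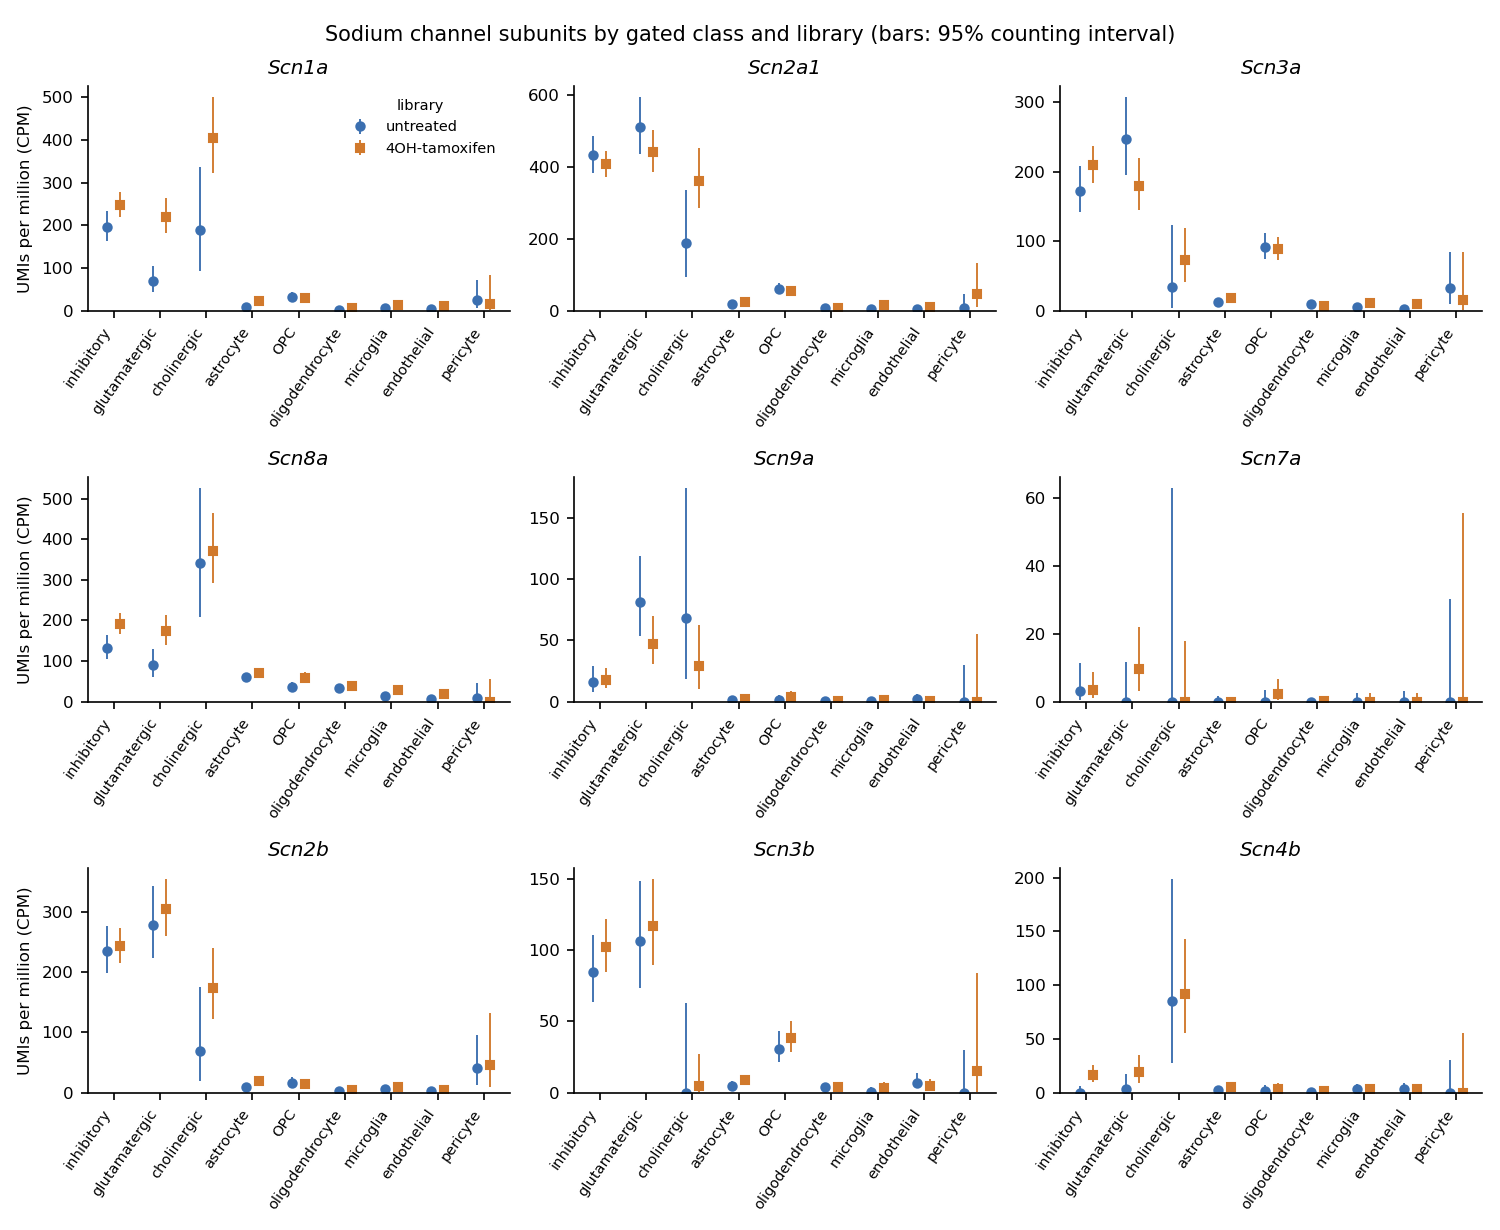
Level of each of the 9 members (CPM) in the 9 gated classes, with 1 point per library and 95% Poisson counting intervals. *Scn2a1* reaches 510 CPM in glutamatergic cells, *Scn8a* and *Scn4b* are highest in cholinergic cells in both libraries, *Scn3a* is at 91.8 and 88.0 CPM in oligodendrocyte precursors, and *Scn7a* reaches 9.45 CPM at most.

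The mix of alpha subunits, the share of each in all alpha UMIs of a class, compares classes without their total channel RNA. Total alpha RNA was similar in the neuron gates, at 951 and 1075 CPM in inhibitory, 998 and 1070 CPM in glutamatergic, and 819 and 1239 CPM in cholinergic cells. *Scn2a1* made up 45.5% of the alpha UMIs of inhibitory cells in the untreated library (exact binomial 95% interval 41.5 to 49.5) and 37.8% in the 4OH-tamoxifen library (35.1 to 40.5). In glutamatergic cells its share was 51.1% (45.5 to 56.7) and 41.2% (37.1 to 45.3). It was the largest share in these 2 classes in each library. These intervals, like all intervals on counts here, cover counting error only.

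*Scn1a* gave 20.6% and 23.0% of the alpha UMIs of inhibitory cells. In glutamatergic cells it gave 6.90% (4.37 to 10.3) in the untreated and 20.5% (17.2 to 24.1) in the 4OH-tamoxifen library, and these intervals did not overlap. *Scn9a* gave 8.15% and 4.42% in glutamatergic cells against 1.65% and 1.66% in inhibitory cells. Cholinergic cells had a flatter mix. *Scn8a* gave 41.7% (27.6 to 56.8) and 30.0% (24.4 to 36.0) there, *Scn1a* 22.9% and 32.7%, and *Scn2a1* 22.9% and 29.2%. In the 4OH-tamoxifen library the intervals of these 3 shares overlapped, so no single leading alpha subunit could be named at this depth. *Scn3a* gave 4.17% and 5.84% in cholinergic cells, against 18.1% and 19.5% in inhibitory cells.

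Non-neuronal classes had other mixes on much less RNA. *Scn8a* gave 60.2% and 51.6% of the alpha UMIs of astrocytes and 64.1% and 65.2% of those of oligodendrocytes. In oligodendrocyte precursors *Scn3a* led, with 42.1% (35.8 to 48.6) and 37.6% (32.2 to 43.2). Their total alpha RNA was 100 and 138 CPM in astrocytes, 52.3 and 57.5 CPM in oligodendrocytes, and 218 and 234 CPM in precursors. Relative to alpha UMIs, the 3 beta members together gave 0.336 and 0.336 beta UMIs per alpha UMI in inhibitory cells, 0.389 and 0.412 in glutamatergic cells, and 0.188 and 0.218 in cholinergic cells. Of the beta UMIs, *Scn2b* was 73.5% and 67.2% in inhibitory and 71.8% and 69.1% in glutamatergic cells. In precursors *Scn3b* was 63.0% and 67.1% of them.

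**Figure D2:**
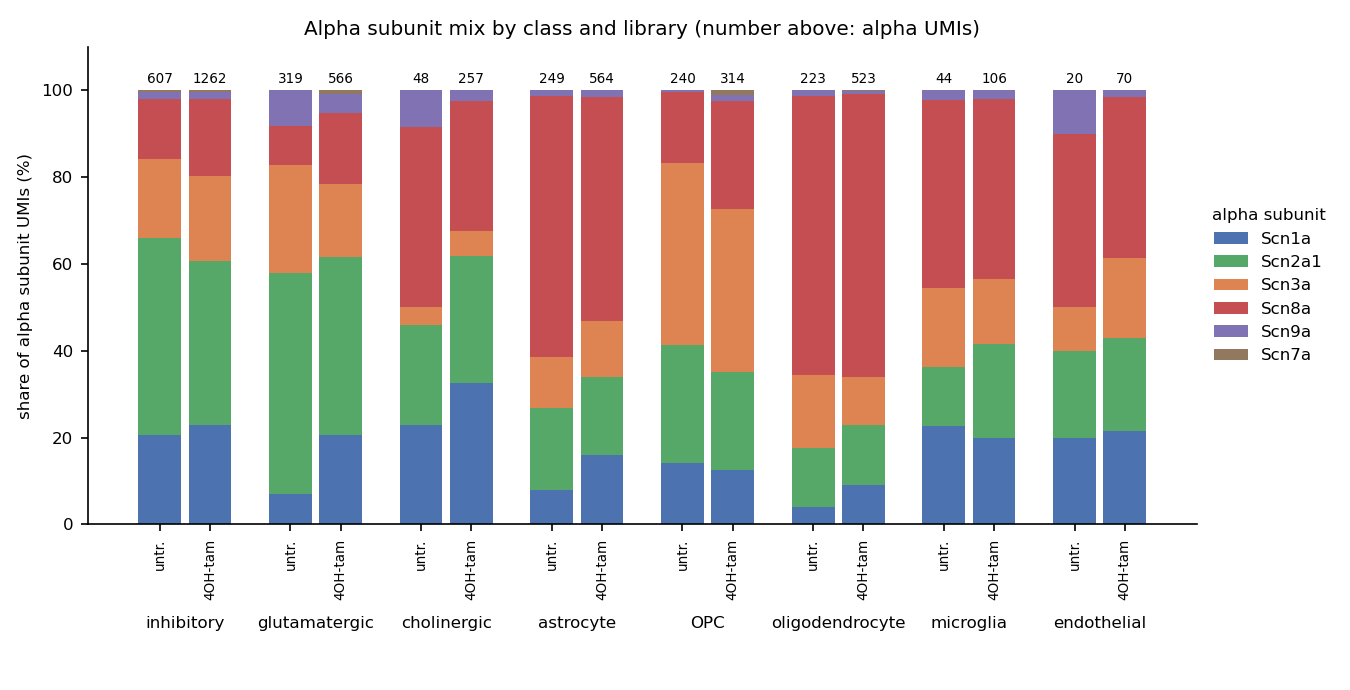
Share of each alpha subunit in the alpha UMIs of 8 gated classes, 1 bar per class and library, with the number of alpha UMIs above each bar. *Scn2a1* is the largest share in inhibitory and glutamatergic cells, *Scn8a* in astrocytes and oligodendrocytes, and *Scn3a* in oligodendrocyte precursors.

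Inhibitory and glutamatergic cells differed in 1 of the 8 members tested. *Scn9a* was lower in inhibitory cells, at −1.74 ± 0.45 on the log2 scale (± SE), with an edgeR adjusted p = 0.0124. The test compared UMI sums per class and library (18 sums, with the library as a block), and adjusted p over 12929 genes. In this contrast 1.76% of all genes were lower and 1.74% higher in inhibitory cells, so 1 of 8 lower and 0 of 8 higher is a small count against a small background. Within the libraries, inhibitory cells held 19.3% and 37.8% of the glutamatergic *Scn9a* level. Without the untreated sums of this pair the difference was −1.35 with an edgeR adjusted p = 0.523, and without the 4OH-tamoxifen sums it was −2.30 with adjusted p = 0.0558, so the call needed both libraries. Of the 26 untreated glutamatergic *Scn9a* UMIs, 25 were in the 20 cells with over 10% mitochondrial UMIs (123 CPM) and 1 in the other 11 cells (8.55 CPM). In the 4OH-tamoxifen library these levels were 50.4 and 43.8 CPM. With at most 10% mitochondrial UMIs the difference was −1.05 and was not called by edgeR (adjusted p = 0.692). It was also not called with a gate at 1 UMI (−0.91) or 3 UMIs (−1.55) or after thinning (−1.98).

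The difference in *Scn1a* between these classes was 0.74 ± 0.24 (log2, inhibitory minus glutamatergic), with an edgeR adjusted p = 0.0800, and did not pass 0.05. The 2 libraries disagreed on its size. Inhibitory cells held 2.84 times the glutamatergic level in the untreated library (1.80 to 4.70) and 1.13 times in the 4OH-tamoxifen library (0.905 to 1.41). With the untreated sums alone the difference was 1.58 and was called by edgeR (adjusted p = 0.00450), and with the 4OH-tamoxifen sums alone it was 0.22. When classes were taken from expression clusters in place of gates, 3 members were called, with *Scn1a* at 1.13, *Scn8a* at 0.69 and *Scn9a* at −2.12. The median difference of the 8 members was −0.12, against 0.07 over all genes. The other 6 members differed by at most 0.36 in size between inhibitory and glutamatergic cells, and none passed the test.

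Glutamatergic cells were not uniform in these channels. They were divided by *Nmb*, which marks retrotrapezoid neurons, and by *Th*, which marks adrenergic cells, into 52 *Nmb* cells, 13 *Th* cells and 68 cells with neither. *Scn9a* was at 104 and 97.5 CPM in *Nmb* cells of the untreated and 4OH-tamoxifen libraries, on 11 and 15 UMIs. It was at 107 and 42.7 CPM in *Th* cells and at 21.5 and 23.0 CPM in the remaining cells. The 5 untreated *Th* cells held 121131 of the 319492 UMIs of the untreated glutamatergic gate, and 13 of its 26 *Scn9a* UMIs. The 8 *Th* cells of the 4OH-tamoxifen library held 70251 of 528950 UMIs. In the 4OH-tamoxifen library the intervals of *Nmb* cells (54.5 to 161) and of the remaining cells (9.23 to 47.3) did not overlap, and in the untreated library they did (52.1 to 187 and 2.61 to 77.8, the latter on 2 UMIs). With at most 10% mitochondrial UMIs *Scn9a* in *Nmb* cells was at 52.7 CPM over both libraries, against 100 CPM without that limit.

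*Scn1a* was at 75.9 and 143 CPM in *Nmb* cells, 33.0 and 14.2 CPM in *Th* cells, and 108 and 305 CPM in the remaining glutamatergic cells. In the untreated library the intervals of the remaining cells (51.6 to 198) and of *Nmb* cells (32.8 to 149) overlapped, and in the 4OH-tamoxifen library they did not (246 to 374 and 89.6 to 216). *Th* cells held 4 and 1 UMIs of it. The remaining cells therefore carried the high *Scn1a* of the 4OH-tamoxifen glutamatergic gate, with 93 of its 116 UMIs. When the *Nmb* and *Th* cells were left out, an alternative chosen after the data were seen, the difference between inhibitory and glutamatergic cells was −0.18 for *Scn9a* (edgeR adjusted p = 0.978) and 0.25 for *Scn1a* (adjusted p = 0.813).

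Over both libraries, *Scn8a* was at 66 CPM in *Nmb* cells, 110 CPM in *Th* cells and 209 CPM in the remaining glutamatergic cells. *Scn2a1* was the leading alpha subunit in all 3 groups. Among inhibitory cells, those with *Sst* (107 cells) held *Scn1a* at 216 CPM, those with *Cck* (45 cells) at 182 CPM and those with *Ndnf* (18 cells) at 221 CPM, with overlapping intervals. The 6 cells with *Pvalb*, all from the 4OH-tamoxifen library, held *Scn1a* at 509 CPM (302 to 805) and *Scn2a1* at 85 CPM. That is the only inhibitory group in which *Scn1a* was above *Scn2a1*, and it rests on 6 cells.

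**Figure D3:**
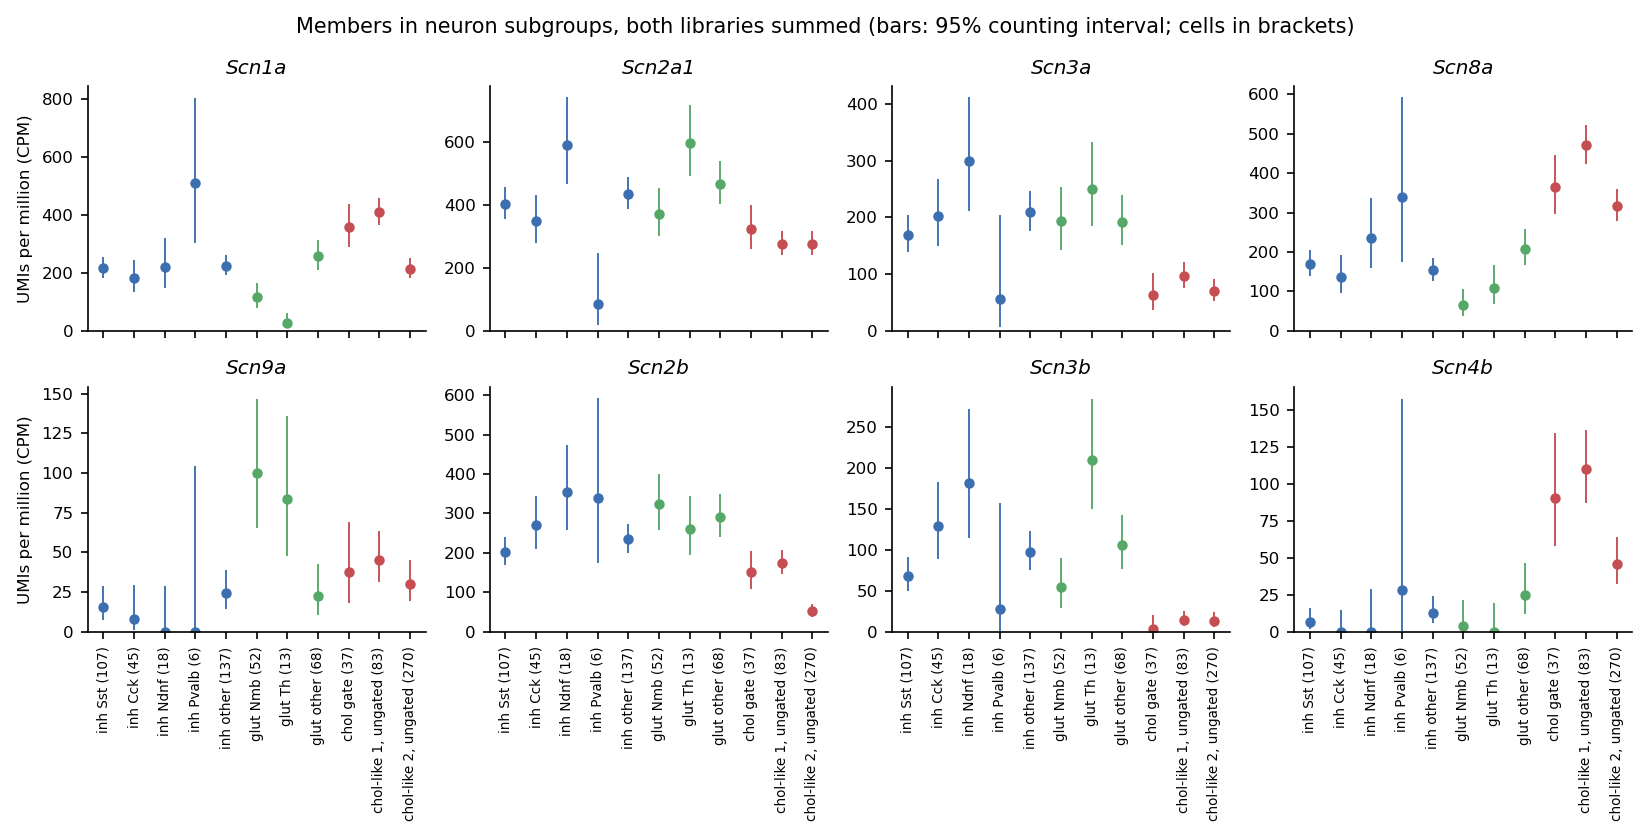
Level of 8 members (CPM over both libraries, with 95% Poisson counting intervals) in groups of inhibitory and glutamatergic cells, in the *Chat* gate and in 2 clusters of cells outside the gates that express cholinergic markers. *Scn9a* is at 100 CPM in *Nmb* and 83.6 CPM in *Th* cells against 22.6 CPM in the other glutamatergic cells, and among the glutamatergic groups *Scn1a* is at 259 CPM in those other cells, 116 CPM in *Nmb* and 26.1 CPM in *Th* cells.

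The *Chat* gate, in which motor neurons were not told apart from other cholinergic cells, differed from both other neuron gates in most members. Against inhibitory cells, 6 of 8 members were called by edgeR, 4 higher and 2 lower in inhibitory cells. Over all genes, 10.3% were higher and 3.82% lower in inhibitory cells. Of the members higher in inhibitory cells, *Scn3b* was at 4.97 ± 0.77 on the log2 scale (edgeR adjusted p = 2.14e-06) and *Scn3a* at 1.94 ± 0.38 (adjusted p = 0.000105). In the 4OH-tamoxifen library alone, the *Scn3b* ratio of inhibitory to cholinergic cells was 21.2, with an interval from 3.73 to 844 that reflects the single cholinergic UMI. *Scn2b* was higher in inhibitory cells by 1.11 ± 0.29 (edgeR adjusted p = 0.00448) and *Scn2a1* by 0.80 ± 0.26 (adjusted p = 0.0259).

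The members that were lower in inhibitory than in cholinergic cells were *Scn4b* and *Scn8a*. *Scn4b* was at −2.82 ± 0.62 on the log2 scale (edgeR adjusted p = 0.000642) and *Scn8a* at −0.76 ± 0.25 (adjusted p = 0.0291). *Scn1a* was at −0.12 ± 0.27 and was not called, and its direction turned with several settings, up to 0.62 when cells had at most 10% mitochondrial UMIs. Against glutamatergic cells, 7 of 8 members were called, 4 higher and 3 lower in glutamatergic cells, where 6.91% of all genes were higher and 3.25% lower. The 4 higher ones were again *Scn3b* (5.13 ± 0.78), *Scn3a* (1.96 ± 0.39), *Scn2b* (1.30 ± 0.29) and *Scn2a1* (0.88 ± 0.26), with edgeR adjusted p from 2.57e-06 to 0.0210. The 3 lower ones were *Scn4b* (−2.53 ± 0.67), *Scn8a* (−1.12 ± 0.27) and *Scn1a* (−0.86 ± 0.29), with edgeR adjusted p of 0.00775, 0.00252 and 0.0458. The median of the 8 members was 0.34 against inhibitory cells (0.31 over all genes) and 0.87 against glutamatergic cells (0.21 over all genes). These contrasts share the cholinergic sums and are not independent of each other.

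**Figure D4:**
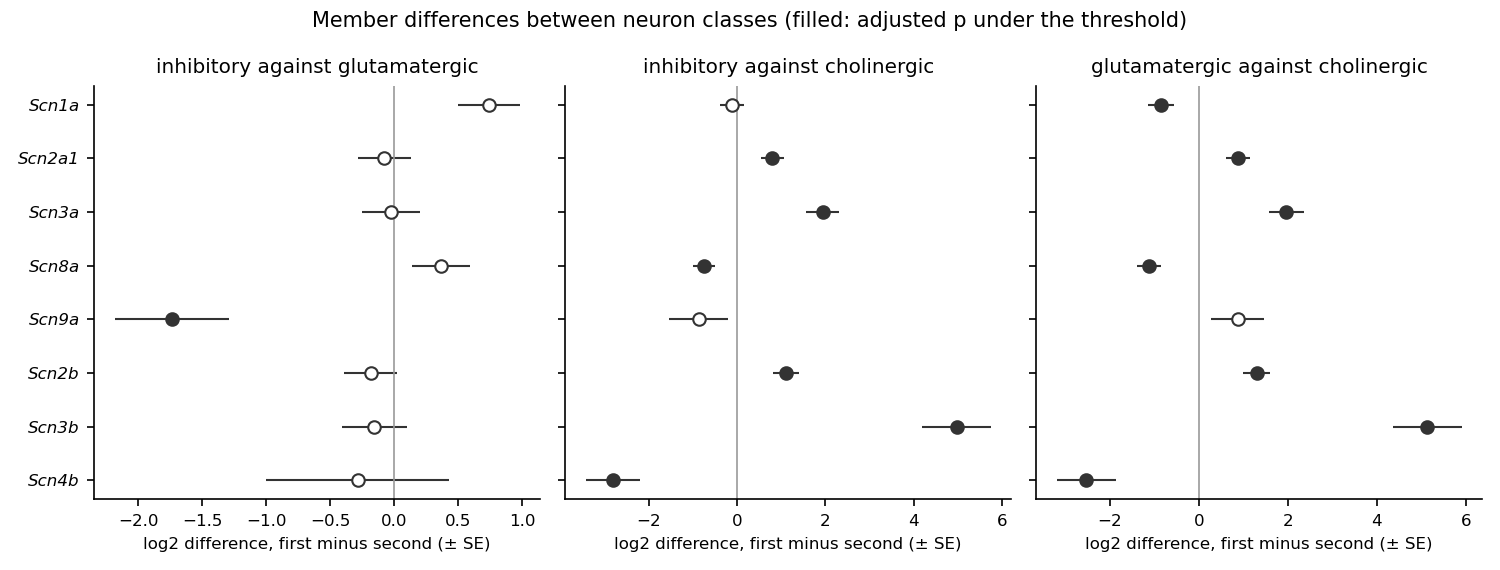
Difference of each member tested between neuron classes (log2, first class minus second, ± SE from edgeR), with filled points for an adjusted p below 0.05. *Scn9a* is the called member between inhibitory and glutamatergic cells, while *Scn3b*, *Scn3a*, *Scn2b* and *Scn2a1* lie above 0 and *Scn8a* and *Scn4b* below 0 in both contrasts with cholinergic cells.

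Several of these calls rested on 1 library or a few cells. In the untreated *Chat* gate 1 of the 7 cells held 23629 of the 58587 UMIs, 12 of the 20 *Scn8a* UMIs and 4 of the 5 *Scn4b* UMIs, and that cell also held 5 UMIs of the fibroblast genes *Dcn* and *Col1a1*. When cells with such UMIs were left out, the inhibitory to cholinergic difference was −0.58 for *Scn8a* and 0.75 for *Scn2a1*, and neither was called. In the same setting *Scn1a* (−0.80) and *Scn2a1* (0.81) were not called against glutamatergic cells. Without the untreated sums, *Scn2a1* was at 0.43, *Scn2b* at 0.75 and *Scn8a* at −0.70 between inhibitory and cholinergic cells, and none of these was called. *Scn8a* also lost its call without the 4OH-tamoxifen sums (−0.88). In all, *Scn8a* lost it in 8 of 18 alternatives, with −0.15 at most 10% mitochondrial UMIs (edgeR adjusted p = 0.861) and −0.21 after thinning, *Scn2a1* in 8 of 18 and *Scn2b* in 5 of 18. *Scn3a* and *Scn3b* were called without either library in both contrasts with cholinergic cells. *Scn4b* was called without either library against inhibitory cells, where it was at −2.23 without the untreated sums. The fitted sizes for *Scn3b* and *Scn4b* lean on classes with 0 UMIs in the untreated library and are no bounds.

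Against glutamatergic cells, *Scn1a*, *Scn4b* and *Scn8a* lost their calls without either library, with differences of −0.76 and −0.93, −2.14 and −4.21, and −0.96 and −1.39. *Scn2a1* and *Scn2b* lost theirs without the untreated sums (0.41 and 0.94). The *Scn1a* call was lost in 13 of 18 alternatives, with −0.20 after thinning (edgeR adjusted p = 0.919) and −0.30 with at most 10% mitochondrial UMIs. *Scn2a1* lost its call in 9 of 18 and *Scn8a* in 7 of 18, with *Scn8a* between −1.42 and −0.59. Scaling also moved these contrasts. The median of all genes was 0.31 between inhibitory and cholinergic cells and 0.21 between glutamatergic and cholinergic cells, and 0.04 in both with DESeq2 size factors. All-gene calls were 1326 higher and 494 lower in inhibitory cells in the first contrast and 795 and 724 with those factors, and 893 and 420 against 582 and 547 in the second. With DESeq2 size factors *Scn2a1* (0.51) and *Scn2b* (0.83) were not called against inhibitory cells, nor was *Scn2a1* (0.68) against glutamatergic cells, and the signs of all called members stayed as given.

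Each of the 8 tested members was higher in the mean of the 3 neuron gates than in the mean of the 6 non-neuronal classes. Of all genes, 25.9% were higher and 31.6% lower. The means are of log2 levels, and the order did not hold for each neuron gate. Untreated *Scn4b* was at 0 CPM in inhibitory and 3.13 CPM in glutamatergic cells, against 3.45 CPM in endothelial cells. *Scn3b* was at 0 and 4.82 CPM in cholinergic cells, against 30.9 and 38.0 CPM in precursors. *Scn9a* differed by 4.95 ± 0.52, *Scn2a1* by 4.20 ± 0.16, *Scn2b* by 3.92 ± 0.19 and *Scn1a* by 3.72 ± 0.17 on the log2 scale. *Scn4b* differed by 3.23 ± 0.56, *Scn3a* by 2.70 ± 0.25, *Scn8a* by 2.60 ± 0.17 and *Scn3b* by 1.99 ± 0.83. The members' median was 3.48, against −0.22 over all genes. The largest edgeR adjusted p among them was 0.0351, for *Scn3b*. *Scn8a*, *Scn3a* and *Scn3b* thus had the smallest differences in this fit, and the *Scn3b* value averages in a cholinergic gate with 0 and 1 UMIs. The order was not kept by the settings below, where *Scn4b* fell to 0.85. Without the 4OH-tamoxifen neuron sums the differences of *Scn3b* (0.45) and *Scn4b* (0.85) were not called, and without the untreated ones all 8 were. *Scn9a* (2.54) and *Scn3b* (0.47) were not called with a gate at 3 UMIs, *Scn3b* (0.52) and *Scn4b* (1.16) with at most 10% mitochondrial UMIs, and *Scn3b* (0.72) after thinning.

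Non-neuronal gates also held neuronal RNA. The summed level of 6 neuronal genes (*Snap25*, *Syt1*, *Stmn2*, *Nefl*, *Nefm* and *Snhg11*) in the 6 non-neuronal classes was 293 to 882 CPM in the untreated and 498 to 2018 CPM in the 4OH-tamoxifen library. In neurons it was 7483 and 8596 CPM. All 6 genes were detected in each non-neuronal class, except for *Syt1*, which was at 0 in untreated endothelial cells and pericytes. As a share of the neuronal level, the list stood at 11.8% and 20.1% in astrocytes, 8.98% and 16.3% in precursors, 3.91% and 5.79% in oligodendrocytes, and 7.33% and 13.7% in microglia. It was thus higher in the 4OH-tamoxifen library in each class.

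*Scn8a* was the leading member in astrocytes, at 60.4 and 71.0 CPM. It was the 1 member of 8 called between astrocytes and the other non-neuronal classes (1.77 ± 0.22 on the log2 scale, edgeR adjusted p = 2.16e-09), where 23.2% of all genes were higher and 15.7% lower in astrocytes. Relative to the neuronal list, *Scn8a* stood at 6.84% and 4.11% in astrocytes, against 1.96% and 2.62% in inhibitory, 1.60% and 2.01% in cholinergic, and 2.31% and 2.43% in microglia. Precursors stood at 5.28% and 4.15%, close to astrocytes. The ratio in astrocytes was above that of each neuron gate in both libraries. *Scn2a1*, the most abundant alpha subunit of neurons, was at 18.9 and 24.6 CPM in astrocytes, below *Scn8a*, and was not called (0.56 ± 0.26). The part of free neuronal RNA in these levels was not tested beyond these ratios.

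Oligodendrocytes also led with *Scn8a*, at 33.5 and 37.5 CPM (1.07 ± 0.25, edgeR adjusted p = 0.000228), or 11.5% and 7.52% of their neuronal list. Of the 8 members, 1 was higher and 4 were lower in oligodendrocytes than in the other non-neuronal classes, where 27.6% of all genes were higher and 21.6% lower. The lower ones were *Scn1a* (−1.63 ± 0.35), *Scn2b* (−1.34 ± 0.29), *Scn3a* (−0.91 ± 0.29) and *Scn2a1* (−0.90 ± 0.30). Without the 4OH-tamoxifen oligodendrocytes *Scn3a* (−0.54) and *Scn2a1* (−0.89) were not called by edgeR. *Scn8a* was called without either library in astrocytes and in oligodendrocytes. Over all 18 alternatives its call was kept in 18 in astrocytes and lost in 1 in oligodendrocytes, with values between 0.17 and 2.24 in the latter.

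**Figure D5:**
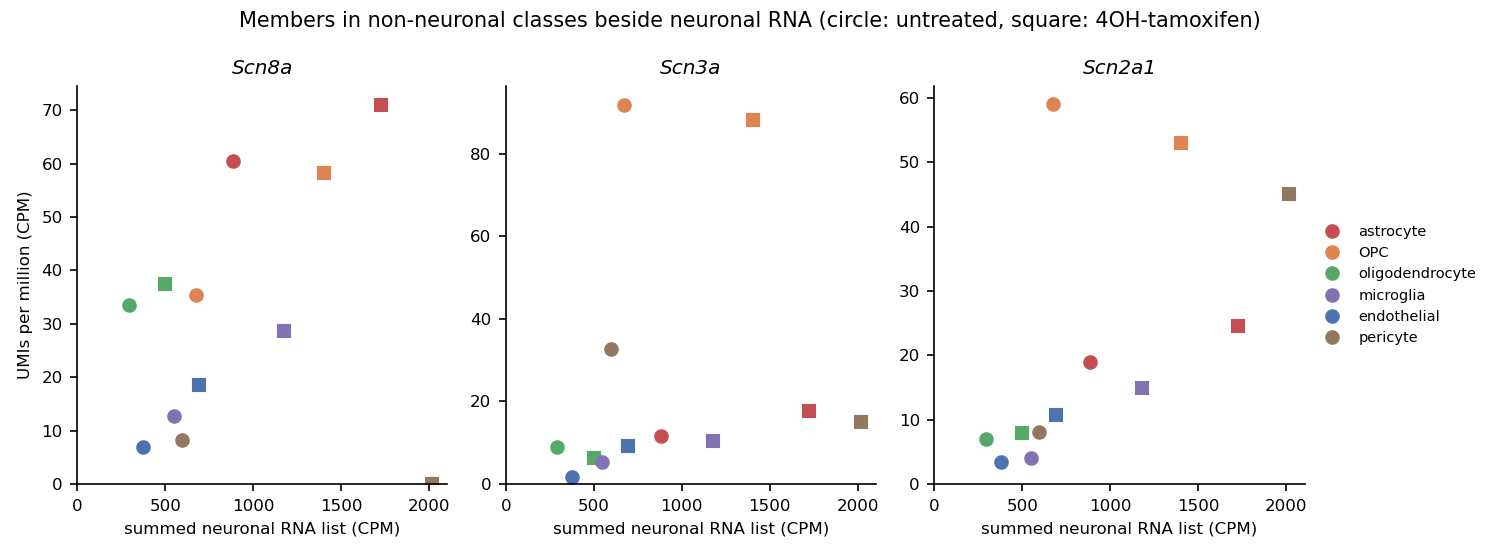
Level of *Scn8a*, *Scn3a* and *Scn2a1* (CPM) against the summed level of 6 neuronal genes (CPM) in the 6 non-neuronal classes, by library, on linear axes. *Scn8a* in astrocytes (60.4 and 71.0 CPM), oligodendrocytes and precursors (35.5 and 58.2 CPM), and *Scn3a* in oligodendrocyte precursors (91.8 and 88.0 CPM), are higher for their neuronal RNA than in the inhibitory and glutamatergic gates. The neuron gates are not drawn. *Scn2a1* of precursors is at 59.1 and 53.0 CPM.

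Oligodendrocyte precursors, which are known to carry voltage-gated sodium currents, held the most sodium channel RNA of the non-neuronal classes in both libraries. *Scn3a* was at 91.8 and 88.0 CPM, *Scn2a1* at 59.1 and 53.0 CPM, *Scn8a* at 35.5 and 58.2 CPM, *Scn3b* at 30.9 and 38.0 CPM, and *Scn1a* at 30.9 and 29.1 CPM. In precursors 5 of 8 members were called higher and 0 lower than in the other non-neuronal classes, against 18.3% higher and 12.8% lower over all genes. The differences were 2.73 ± 0.22 for *Scn3a* (edgeR adjusted p = 1.22e-15), 2.63 ± 0.31 for *Scn3b* (adjusted p = 3.33e-10) and 1.88 ± 0.25 for *Scn2a1* (adjusted p = 1.10e-08). Those of *Scn1a* and *Scn8a* were 1.27 ± 0.29 and 0.86 ± 0.29. The median of the 8 members was 1.44 and that of all genes 0.05. *Scn1a* lost its call without the untreated precursors (0.84) and *Scn8a* without the 4OH-tamoxifen ones (0.72), while the other 3 kept theirs without either library. Over all 18 alternatives *Scn8a* lost its call in 8, with values between 0.17 and 2.03, and *Scn1a* in 2, with values between 0.69 and 1.89.

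The mix of precursors did not follow that of neurons. *Scn3a* stood at 1.55 and 1.66 times *Scn2a1* in precursors, against 0.399 and 0.516 times in inhibitory and 0.485 and 0.408 times in glutamatergic cells. Relative to the neuronal list, *Scn3a* was at 13.7% and 6.28% in precursors, against 2.57% and 2.87% in inhibitory cells. The neuronal list in precursors was at 672 and 1403 CPM, and its part in these levels was not tested. Cells with at least 1 *Scn3a* UMI made up 23.7% and 16.2% of precursors. After thinning to 2000 UMIs, which left out shallower cells, the share was 14.4% in each library. The thinned share covers 299 of 316 untreated and 277 of 647 4OH-tamoxifen precursors. In microglia, the class set beside them, thinning gave 1.45% in both libraries, over 344 of 356 and 414 of 596 cells. The median over all cells before thinning was 4036 and 2328 UMIs in microglia and 3216 and 1891 in precursors.

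Microglia, endothelial cells and pericytes held few member UMIs. None of the 8 members was called in microglia by edgeR, where 21.4% of all genes were higher and 12% lower than in the other non-neuronal classes. Without the 4OH-tamoxifen microglia *Scn2a1* (−1.56) and *Scn3b* (−2.83) were called. In endothelial cells 0 members were higher and 3 lower, against 21.7% and 14.3% of all genes. They were *Scn2b* (−1.61 ± 0.44), *Scn3a* (−1.60 ± 0.41) and *Scn2a1* (−1.24 ± 0.40), and the last 2 were not called without the untreated cells (−0.96 and −0.79). In pericytes 1 of 8 was higher, *Scn2b* at 2.12 ± 0.66 (edgeR adjusted p = 0.0282), on 5 and 3 UMIs, and 0 were lower, against 4.96% and 3.99% of all genes. Member and all-gene medians were 0.00 and 0.08 in microglia, −0.90 and 0.04 in endothelial cells, and −0.21 and −0.39 in pericytes. The pericyte gate had 45 and 34 cells, and its *Scn2b* was not called without either library (1.86 and 2.28).

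Between the libraries, members were set side by side with a ratio and an exact conditional interval, without a test. In inhibitory cells *Scn1a* was 1.26 times as high in the 4OH-tamoxifen library (1.02 to 1.57) and *Scn8a* 1.45 times (1.12 to 1.89). In glutamatergic cells *Scn1a* was 3.18 times as high (2.01 to 5.28), *Scn8a* 1.92 times (1.25 to 3.02) and *Scn3a* 0.726 times (0.533 to 0.992). The *Scn1a* ratio of glutamatergic cells depended on cells rich in mitochondrial RNA. Among cells with at most 10% mitochondrial UMIs the 11 untreated ones held *Scn1a* at 120 CPM and the 40 from the 4OH-tamoxifen library at 127 CPM, and the ratio was 1.06. Among those above 10% it was at 39.5 CPM in 20 cells and 302 CPM in 62 cells. *Scn8a* also differed less between the libraries in cells with at most 10% mitochondrial UMIs. In inhibitory cells it was then at 153 and 175 CPM, and at 120 and 216 CPM above 10%. In glutamatergic cells these levels were 111 and 151 CPM, and 79.0 and 194 CPM above 10%.

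In cholinergic cells the ratio was 2.16 for *Scn1a* (1.15 to 4.48) and 1.93 for *Scn2a1* (1.02 to 4.02), on 11 untreated UMIs each. The gate drew on unlike cells in the libraries: of its cells, 1 untreated and 15 4OH-tamoxifen ones lay in a cluster led by *Slc18a3*, and 6 and 14 in a cluster led by *Miat*, whose ungated cells held *Scn1a* at 410 and 215 CPM. *Scn4b* in inhibitory cells went from 0 to 19 UMIs. Of these, 18 were in the 99 cells with over 10% mitochondrial UMIs and 1 in the other 150 cells. In astrocytes *Scn1a* was 2.73 times as high with 4OH-tamoxifen, *Scn2b* 2.22 times and *Scn3b* 2.04 times (1.02 to 4.43). In microglia *Scn2a1* was 3.73 times and *Scn8a* 2.26 times as high, and in endothelial cells *Scn3a* was 5.39 times (1.22 to 49.2) and *Scn8a* 2.69 times (1.18 to 6.88). In precursors *Scn8a* was 1.64 times as high (1.10 to 2.48), and in oligodendrocytes *Scn1a* was 2.45 times (1.19 to 5.68) and *Scn4b* 7.03 times (1.08 to 296). No interval outside the neuron gates lay below 1. The neuronal list was also higher there, at 882 and 1725 CPM in astrocytes and 548 and 1177 CPM in microglia, and its part in the ratios was not tested. No member had a ratio between 2 classes whose intervals lay on opposite sides of 1 in the 2 libraries.

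Single cells usually held more than 1 alpha subunit. At least 2 of the 6 alpha genes were detected in 89.0% of untreated and 84.7% of 4OH-tamoxifen inhibitory cells, in 87.1% and 81.4% of glutamatergic cells, and in 7 of 7 and 83.3% of cholinergic cells. No alpha UMI was seen in 1 and 7 inhibitory cells. In microglia at least 2 were seen in 0.843% and 1.68% of cells. After thinning to 2000 UMIs the shares were 41.1% and 52.3% in inhibitory, 46.7% and 48.0% in glutamatergic, 71.4% and 63.3% in cholinergic and 0.872% and 0.966% in microglia. The order of the libraries turned in inhibitory and glutamatergic cells, and in the cholinergic gate, whose median depth was 6339 and 6247 UMIs, the untreated share stayed higher on 7 cells.

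*Scn1a* was detected in 71.2% of untreated and 62.7% of 4OH-tamoxifen inhibitory cells, at a median of 8605 and 4272 UMIs per cell. After thinning, these shares were 24.7% and 35.4%, so the order of the libraries turned. In glutamatergic cells *Scn1a* was detected in 35.5% and 52.0% of cells, or 16.7% and 30.6% after thinning. Microglia gave 1.97% and 3.19%, or 0.581% and 2.42% after thinning. Microglia stand here as a class with few member UMIs, and the share that free RNA gives was not measured. *Scn3b* was found in 0 of 7 and 1 of 30 cholinergic cells, and in 53.4% and 32.5% of inhibitory cells.

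Of 12 genes for anchors and partners of the channel, such as *Ank3* (ankyrin-G, which holds channels at the initial segment) and *Sptbn4*, 10 were higher in neurons than in other cells and 1, *Scnm1*, was lower, where 25.9% of all genes were higher and 31.6% lower. *Fgf13*, which binds the tail of sodium channels, was lower in inhibitory than in glutamatergic cells (−1.75 ± 0.32, edgeR adjusted p = 0.000148). *Fgf11*, of the same family, was higher in cholinergic than in inhibitory cells (−1.91 ± 0.39) and than in glutamatergic cells (−2.69 ± 0.47). The counts for the 12 partners were 0 higher and 1 lower between inhibitory and glutamatergic cells, 0 and 1 between inhibitory and cholinergic cells, and 1 and 1 between glutamatergic and cholinergic cells. The shares over all genes were 1.74% and 1.76%, 10.3% and 3.82%, and 6.91% and 3.25%, so these counts of 0 or 1 are no result about the list. Oligodendrocytes held the most *Nfasc*, a node of Ranvier adhesion protein, at 1236 and 1455 CPM.

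Among 6706 genes with enough counts, those whose level over the 18 class sums was most like that of a member were found by Pearson's r of log2 CPM, as a description. The points share libraries, and neurons stand apart from other cells in most of them. *Clec2l* (0.980), *Slc12a5* (0.976), which encodes the neuronal chloride exporter, and *Elavl2* (0.970) were most like *Scn1a*, and *Stmn3* (0.994) was most like *Scn2a1*. *Rab9b* (0.982), *Lhfpl5* (0.975) and *Tacr1* (0.969), the receptor for substance P, were most like *Scn9a*. *Tesc* (0.952) was most like *Scn4b*, *Chic1* (0.964) and *Kcnq3* (0.955), a potassium channel of the initial segment, were most like *Scn8a*, *Prkar1b* (0.973) was most like *Scn2b*, *Pnmal2* (0.961) most like *Scn3a*, and *Celf3* (0.969) most like *Scn3b*. Among the members themselves, *Scn2a1* and *Scn2b* were closest (0.945) and *Scn3b* and *Scn4b* farthest apart (−0.06).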

How the data were processed

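Single cells of 2 libraries were profiled with 10x 3′ chemistry. The authors made the deposited counts with bcl2fastq 2.18.0.12 and Cell Ranger 2.2.0 on mm10, per the labels and the submitters' processing notes, and each value is a whole-number UMI count per gene and barcode. Depth was 18496942 and 34704167 UMIs. Intervals (95%, exact Poisson, binomial or conditional) and the floor of 3 UMIs cover counting error only.

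Cells with at least 800 genes, at most 50 hemoglobin UMIs and at most 20% mitochondrial UMIs were kept, and doublets called by Scrublet at its automatic threshold were removed (Python 3.11.15, scanpy 1.11.5, scipy 1.17.1). Scrublet marked 6 untreated and 544 4OH-tamoxifen barcodes, so doublets may remain in the former. UMIs were summed per class and library, and classes were compared with edgeR 4.0.16 (quasi-likelihood, TMM, library as a block, R 4.3.3) on genes that passed its filter on low counts. P-values were adjusted by Benjamini-Hochberg over 12929 genes, with a call below 0.05. The library is the pairing: both sums of a contrast come from the same library. The script was tested on simulated data.

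Alternatives were other gates, cell filters, doublet settings, classes by clusters, thinning to 2000 UMIs, DESeq2 1.42.0, its size factors, no filter on low counts, no block, and leaving out the sums of the compared classes from 1 library. A class then has 1 sum and is assumed to vary like the other classes. Thinning left out cells with fewer than 2000 UMIs. The named genes were all members, other genes of the family, which are not reported here, 12 partners, and for each member the 3 genes with the highest Pearson r. The members and lists were chosen with earlier results of these data known.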

Additional observations from a re-analysis of the deposited data

Results flagged for a closer look

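Members were also present in cells outside all gates. Of the clusters computed without the member genes, a pair had the highest levels of 4 cholinergic markers (*Slc5a7*, *Slc18a3*, *Isl1* and *Prph*) and lay mostly outside the *Chat* gate. The levels below are those of their ungated cells, over both libraries, and each was flagged because it was above the upper counting limit of the same gene in microglia. No sample stood apart by a test, since there is 1 library per condition.

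The first cholinergic-like cluster, led by *Slc18a3*, *Slc5a7* and *Chodl*, had 111 cells, of which 2 were untreated and 83 were ungated. Its ungated cells held *Scn8a* at 470 CPM, *Scn1a* at 410 CPM, *Scn2a1* at 277 CPM, *Scn3a* at 96.0 CPM and *Scn9a* at 45.3 CPM. The beta subunits were at 174 CPM for *Scn2b*, 110 CPM for *Scn4b* and 13.7 CPM for *Scn3b*. All but 1 of these 83 cells came from the 4OH-tamoxifen library, whose *Chat* gate held *Scn1a* at 405 CPM and *Scn8a* at 371 CPM.

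The second cluster, led by *Miat*, *Snhg11* and *Rgs11*, had 345 cells, of which 270 were ungated, at a median of 2680 UMIs. Its ungated cells held *Scn8a* at 316 CPM, *Scn2a1* at 277 CPM, *Scn1a* at 215 CPM, *Scn3a* at 69.5 CPM and *Scn9a* at 30.2 CPM. The beta subunits were at 52.5 CPM for *Scn2b*, 45.9 CPM for *Scn4b* and 13.1 CPM for *Scn3b*. These cells were not compared with the gated classes by a test.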

How the results depend on the processing

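The number of members called moved with several settings. Between inhibitory and glutamatergic cells it was 0 with a gate at 1 UMI, a gate at 3 UMIs, at most 10% mitochondrial UMIs, thinning, or without *Nmb* and *Th* cells (chosen after seeing the data), and 3 with clusters. Between inhibitory and cholinergic cells it was 3 with thinning, and between glutamatergic and cholinergic cells 3 with at most 10% mitochondrial UMIs or without *Nmb* and *Th* cells and 2 with thinning. Without the replicate block, which breaks the pairing by library, these 2 contrasts gave 3 and 4 calls and pericytes 0. Astrocytes gave 2 (at least 1200 genes, or no filter on low counts) and 3 (10% mitochondrial). Precursors gave 3 (gate at 1 UMI), oligodendrocytes 3 (gate at 1 UMI, thinning), and endothelial cells 0 (gate at 1 UMI). Microglia gave 2 (gate at 3 UMIs) and 1 (doublets by rate, 1200 genes, 10% mitochondrial). Pericytes gave 0 (gate at 3 UMIs, thinning, cholinergic cells also gated by *Slc5a7* or *Slc18a3*, an alternative chosen after seeing the data) and 2 (doublets by rate).

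Leaving out a library gave 0 to 1 calls between inhibitory and glutamatergic, 3 to 5 between inhibitory and cholinergic, 2 to 4 between glutamatergic and cholinergic cells, and 6 to 8 in neurons. It gave 1 to 2 in astrocytes, 4 in precursors, 3 to 5 in oligodendrocytes, 0 to 2 in microglia, 1 to 3 in endothelial cells and 0 in pericytes.

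The *Scn1a* difference between inhibitory and cholinergic cells (−0.12, not called) turned to 0.17 with a gate at 3 UMIs, 0.62 with 10% mitochondrial UMIs, 0.030 with thinning, 0.32 with the wider cholinergic gate and 0.55 without the 4OH-tamoxifen sums, and was −0.45 without the untreated sums. The *Scn2a1* share was 52.3% in untreated inhibitory cells with thinning and 45.7% in 4OH-tamoxifen glutamatergic cells by clusters. The *Scn8a* share of untreated astrocytes was 53.2%, 72.9%, 77.8%, 52.9% and 42.3% with gates at 1 and 3 UMIs, clusters, 1200 genes and 10% mitochondrial, and that of 4OH-tamoxifen astrocytes 46.8%, 56.8%, 62.9% and 43.5% with the first 4. The *Scn3a* share of precursors was 35.1% (untreated, thinning) and 44.1% (4OH-tamoxifen, gate at 3 UMIs). The share of inhibitory cells with *Scn1a* was 45.2%, 57.6% and 24.7% (untreated, at least 2 UMIs, gate at 1 UMI, thinning) and 28.5%, 44.4%, 55.7% and 35.4% (4OH-tamoxifen, the same and clusters, in the order at least 2 UMIs, gate at 1 UMI, clusters, thinning). The *Scn1a* library ratio of glutamatergic cells was 1.06, and *Scn9a* in *Nmb* cells 52.7 CPM, with 10% mitochondrial UMIs, and *Scn1a* in *Th* cells was 0 after thinning. The cause of these moves was not tested. Classes by clusters gave no cholinergic class. Of 701 values for the log2 differences of members, 593 kept direction and side of the threshold. The *Chat* gate is limited by its 7 and 30 cells, and pericytes by a depth of 122442 and 66414 UMIs.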
